A study of Mus musculus with 9 samples.

Results

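Voltage-gated calcium channel genes were measured in the trigeminal ganglion (TG), the ganglion that holds the cell bodies of the sensory neurons of the face and jaw, after inflammation of the temporomandibular joint (TMJ). The 10 member genes were Cacna1a, Cacna1b, Cacna1c, Cacna1d, Cacna1e, Cacna1h and Cacna1i, which encode pore-forming alpha1 subunits, and Cacna2d1, Cacna2d2 and Cacna2d3, which encode alpha2delta subunits. They were taken by name from the 21809 genes of the mRNA table. Each gene's level is its gene sum, that is, the FPKM (fragments mapped to a transcript, scaled by its length and by the library's depth) of all its transcripts added together. All 10 passed the minimum mean of 0.1 FPKM, as did 16096 genes in all, and 79 of their 115 transcripts passed it.

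The 9 libraries came from wild-type male C57BL/6 mice, 8 weeks old, and each library pooled unilateral TG punches of 3 mice. The 3 Saline libraries came from mice given 10 µl of saline into the TMJ and are labelled day 3. The 3 CFA3D and 3 CFA6D libraries came from mice given 10 µl of complete Freund's adjuvant (CFA, 5 mg/ml), a preparation that causes lasting local inflammation, and are labelled day 3 and day 6. Injections were unilateral and made under isoflurane. No saline library of day 6 was analysed here, so time and CFA cannot be told apart in the comparison of CFA6D with Saline.

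Voltage-gated calcium channels open when the membrane depolarizes, and the calcium that enters drives transmitter release, gene regulation and firing. Each high-voltage channel joins an alpha1 pore with a beta and an alpha2delta subunit, whereas T-type pores open near the resting potential and can work alone. In sensory neurons the N-type pore Cacna1b supports transmitter release at the central terminals, the T-type pore Cacna1h lowers the threshold for firing, and Cacna2d1 is the binding site of gabapentin and pregabalin.

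Depth, estimated from the steps of the low values, was 30.0 M to 42.2 M read pairs per library, so that a single pair added 0.0237 to 0.0333 FPKM to a 1 kb transcript, and the members' gene sums rested on about 205 (Cacna1i) to 6365 (Cacna1b) pairs. Sensory neuron markers, such as Rbfox3, Tubb3 and Prph, had a summed level of 2457 to 3106 FPKM in Saline, 2879 to 3462 in CFA3D and 3079 to 3752 in CFA6D, and none of the 13 was at 0 throughout. Libraries stood apart in RNA of neighbouring tissue. The summed level of 5 pituitary genes was 10630 FPKM in Saline 3 and 32.5 to 1144 in the others, and that of 6 skeletal muscle genes was 159 in Saline 2, 70.0 in CFA6D 6, 34.3 in Saline 1 and 1.26 to 9.44 in the others.

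The levels of the members spanned a wide range that was nearly the same in every library. The order by mean gene sum over the 9 libraries was Cacna1a (27.3 FPKM), Cacna1b (19.4), Cacna2d1 (14.3), Cacna1c (13.8), Cacna2d3 (10.6), Cacna1h (9.12), Cacna2d2 (7.96), Cacna1e (3.44), Cacna1d (3.05) and Cacna1i (1.24). Cacna1a stood above Cacna1b, and Cacna1b above Cacna2d1, in 9 of 9 libraries. Cacna2d1 exceeded Cacna1c in only 6 of 9 and Cacna1e exceeded Cacna1d in 7 of 9, so these neighbours were not separated beyond their spread. Over all libraries only the ranges of Cacna2d2 and Cacna1e, and of Cacna1d and Cacna1i, lay apart between neighbours in this order. Cacna1a lay above 89.3% and Cacna1i above 20.7% of all tested genes. Counting only transcripts annotated as protein coding put Cacna1b first (19.3 FPKM) and Cacna1a second (14.4), again in 9 of 9 libraries, and moved Cacna1d (0.455 FPKM) to the end behind Cacna1i (1.24). That count includes short coding fragments of Cacna1b. Over transcripts coding for at least 3000 bases, Cacna1a stood above Cacna1b in Saline 1 (14.27 against 12.77 FPKM), CFA3D 2 (13.79 against 13.49) and CFA6D 6 (15.83 against 15.15). In the other libraries it stood below.

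**Figure D1:**
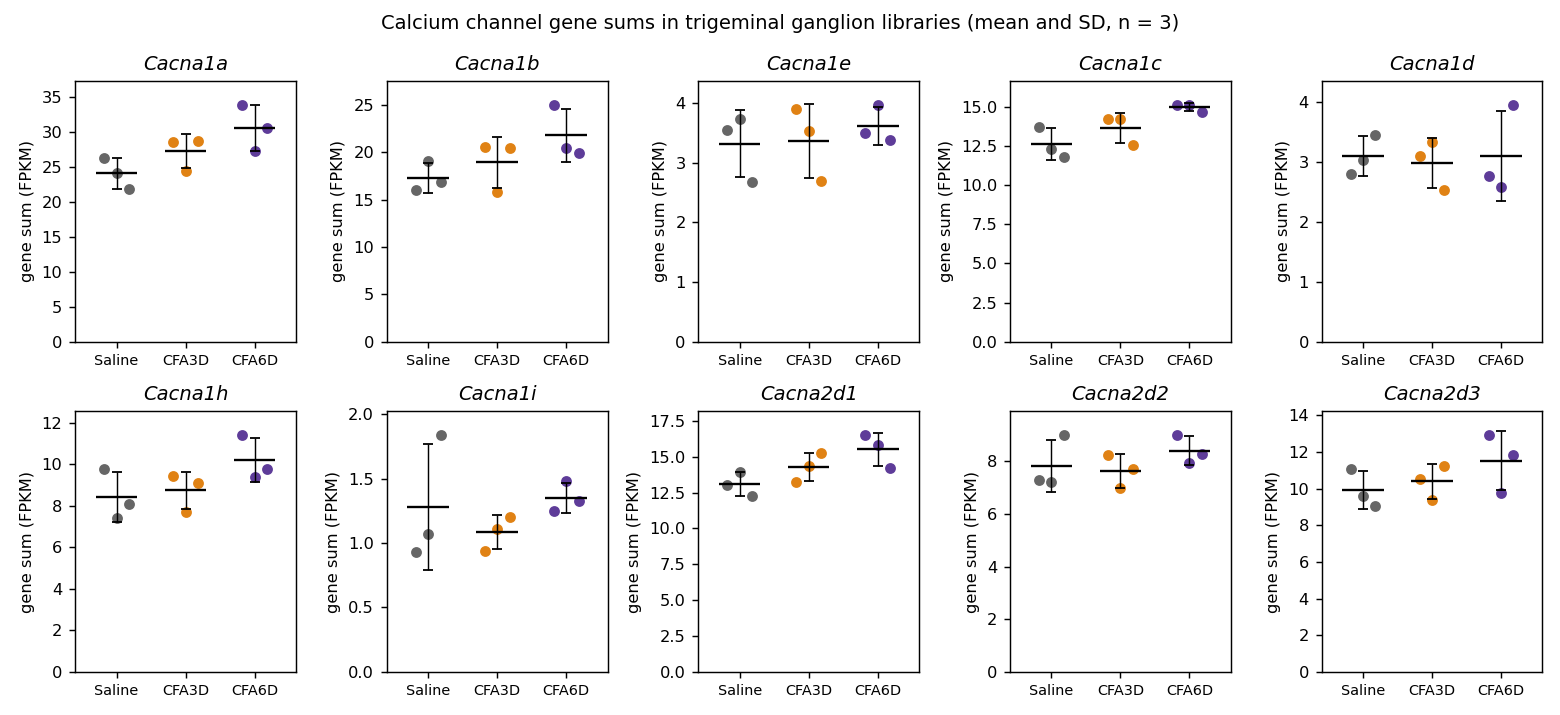
Gene sums in FPKM (vertical axes, starting at 0) of the 10 member genes in the Saline, CFA3D and CFA6D libraries (horizontal axes). Points are libraries, bars are the mean and SD of 3 libraries. For Cacna1a, Cacna1b, Cacna1c and Cacna2d1 the 3 CFA6D points lie above all 3 Saline points, and for Cacna1i the highest point of all is Saline 3.

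Of the neuronal high-voltage pores, Cacna1a and Cacna1b were higher on CFA6D than in Saline and Cacna1e did not pass the test. Cacna1a (chr8:84388440-84640246, GRCm38, plus strand) encodes the P/Q-type pore of presynaptic terminals. Its gene sum was 26.3, 24.1 and 21.9 FPKM in Saline, 28.6, 24.5 and 28.8 on CFA3D, and 33.9, 27.3 and 30.6 on CFA6D. Every CFA6D library lay above every Saline library, whereas CFA3D overlapped both. By limma, the log2 fold change on CFA6D was 0.34 (SE 0.11, 95% interval 0.10 to 0.59), with an adjusted p of 0.285 over all genes, and on CFA3D it was 0.18 (-0.07 to 0.42).

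Cacna1b (chr2:24603887-24763152, minus strand) encodes the N-type pore, the target of ziconotide. Its gene sum was 16.1, 19.1 and 16.8 FPKM in Saline, 20.6, 15.8 and 20.4 on CFA3D, and 25.0, 20.5 and 19.9 on CFA6D. CFA6D again lay above Saline in every library, and the lowest value of the 9 was a CFA3D library. Its log2 fold change was 0.33 on CFA6D (SE 0.13, 95% interval 0.03 to 0.62, adjusted p = 0.402) and 0.12 on CFA3D (-0.17 to 0.42). Cacna1e (chr1:154390731-154884501, minus strand), the R-type pore, had gene sums of 3.55, 3.74 and 2.68 FPKM in Saline, 3.90, 3.53 and 2.69 on CFA3D and 3.50, 3.98 and 3.38 on CFA6D. The groups overlapped throughout, with log2 fold changes of 0.02 on CFA3D (95% interval -0.38 to 0.42) and 0.13 on CFA6D (-0.27 to 0.53).

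Of the L-type pores, which couple depolarization to gene regulation, Cacna1c was higher on CFA6D. Cacna1c (chr6:118587240-119196418, minus strand) had gene sums of 13.7, 12.3 and 11.8 FPKM in Saline, 14.2, 14.3 and 12.6 on CFA3D and 15.1, 15.1 and 14.7 on CFA6D. It was the member with the least spread, and its CFA6D libraries lay above all 6 others. Cacna1c had a log2 fold change of 0.25 on CFA6D (SE 0.09, 95% interval 0.06 to 0.45, adjusted p = 0.329), 0.12 on CFA3D (-0.08 to 0.31) and 0.13 between CFA6D and CFA3D (-0.06 to 0.33). Cacna1d (chr14:30039939-30491455, minus strand) had gene sums of 2.79, 3.03 and 3.45 FPKM in Saline, 3.09, 3.33 and 2.52 on CFA3D and 2.75, 2.58 and 3.95 on CFA6D. These overlapped, with log2 fold changes of -0.05 on CFA3D (95% interval -0.47 to 0.36) and -0.02 on CFA6D (-0.43 to 0.40).

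The T-type pores did not pass the test. Cacna1h (chr17:25374285-25433783, minus strand) had gene sums of 9.76, 7.43 and 8.08 FPKM in Saline, 9.41, 7.71 and 9.09 on CFA3D and 11.4, 9.39 and 9.79 on CFA6D. Saline 1 lay among the CFA6D values, and the log2 fold change on CFA6D was 0.28 (SE 0.13, 95% interval -0.02 to 0.57, adjusted p = 0.483). Cacna1i (chr15:80287238-80398279, plus strand) had gene sums of 0.930, 1.07 and 1.84 FPKM in Saline, 0.941, 1.11 and 1.20 on CFA3D and 1.25, 1.48 and 1.33 on CFA6D. The highest value came from Saline 3, the library with the highest summed level of pituitary genes, and the part of pituitary RNA in it was not tested. The log2 fold change of Cacna1i on CFA3D was -0.17 with all libraries and 0.10 without Saline 3, and on CFA6D it was 0.13 with all and 0.40 without it. Cacna1g, the T-type pore that is not among the members, was at 2.41, 2.06 and 2.62 FPKM in Saline, 2.63, 3.69 and 0.737 on CFA3D and 1.69, 2.29 and 2.97 on CFA6D. These groups overlapped, with a log2 fold change of -0.06 on CFA6D (95% interval -1.13 to 1.01).

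Of the alpha2delta subunits, extracellular proteins that carry channels to the cell surface, Cacna2d1 was higher on CFA6D. Cacna2d1 (chr5:15934691-16374511, plus strand) had gene sums of 13.04, 13.9 and 12.3 FPKM in Saline, 13.3, 14.3 and 15.2 on CFA3D and 16.5, 15.8 and 14.2 on CFA6D. All CFA6D libraries lay above all Saline libraries. Cacna2d1 had a log2 fold change of 0.24 on CFA6D (SE 0.09, 95% interval 0.04 to 0.45, adjusted p = 0.361) and 0.12 on CFA3D (-0.08 to 0.33). Its leading transcript, ENSMUST00000078272, held 54.3 to 69.1% of the gene sum. That transcript was at 8.05, 7.56 and 7.63 FPKM in Saline, 8.26, 9.26 and 10.5 on CFA3D and 10.8, 9.87 and 8.95 on CFA6D, so that both CFA groups lay above Saline. How many of all transcripts do so was not computed. The log2 fold change of ENSMUST00000078272 was 0.34 on CFA6D (95% interval 0.06 to 0.62, adjusted p = 0.669) and 0.26 on CFA3D (-0.02 to 0.55), below the minimum size of 1 set for calling a transcript. The retained-intron ENSMUST00000200270 of Cacna2d1 was at 1.47 to 2.34 FPKM.

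Cacna2d2 and Cacna2d3 did not pass the test. Cacna2d2 (chr9:107399612-107529343, plus strand) had gene sums of 7.29, 7.20 and 8.98 FPKM in Saline, 8.25, 6.97 and 7.71 on CFA3D and 9.003, 7.95 and 8.27 on CFA6D. Saline 3 stood as high as the highest CFA6D library, and the log2 fold change on CFA6D was 0.11 (95% interval -0.15 to 0.36). Cacna2d3 (chr14:28904943-29721864, minus strand), known for its part in heat nociception, had gene sums of 11.1, 9.61 and 9.05 FPKM in Saline, 10.5, 9.40 and 11.3 on CFA3D and 12.9, 9.76 and 11.8 on CFA6D. The groups overlapped, and the log2 fold change on CFA6D was 0.21 (95% interval -0.08 to 0.49).

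Counted over the members, an unadjusted p under 0.05, the cutoff the study used, was reached by 0 of 10 gene sums on CFA3D, where 4.45% of all 16096 gene sums reached it (3.65% higher, 0.801% lower), and 0 of 10 lay wholly above or below Saline (7.01% and 2.11% of all). On CFA6D it was reached by 4 of 10, all higher and all with groups that did not overlap. The background on CFA6D was 11.1% for either direction, 8.22% for higher and 2.85% for lower, and 10.7% of all gene sums lay wholly above and 5.5% wholly below Saline. No gene sum had an adjusted p under 0.05 in any comparison (0% of all). Both comparisons used the same Saline libraries. The median log2 fold change of the members was 0.06 on CFA3D, against 0.05 over all tested genes, and 0.23 on CFA6D, against 0.03. Between CFA6D and CFA3D 0 of 10 passed (7.39% of all, 3.06% higher and 4.34% lower), and Cacna1c and Cacna1i lay wholly above CFA3D, as did 6.62% of all gene sums, while 10.1% lay wholly below. In that comparison all 10 differences were above 0, against 46.1% of all genes, and the median was 0.14 against -0.02.

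**Figure D2:**
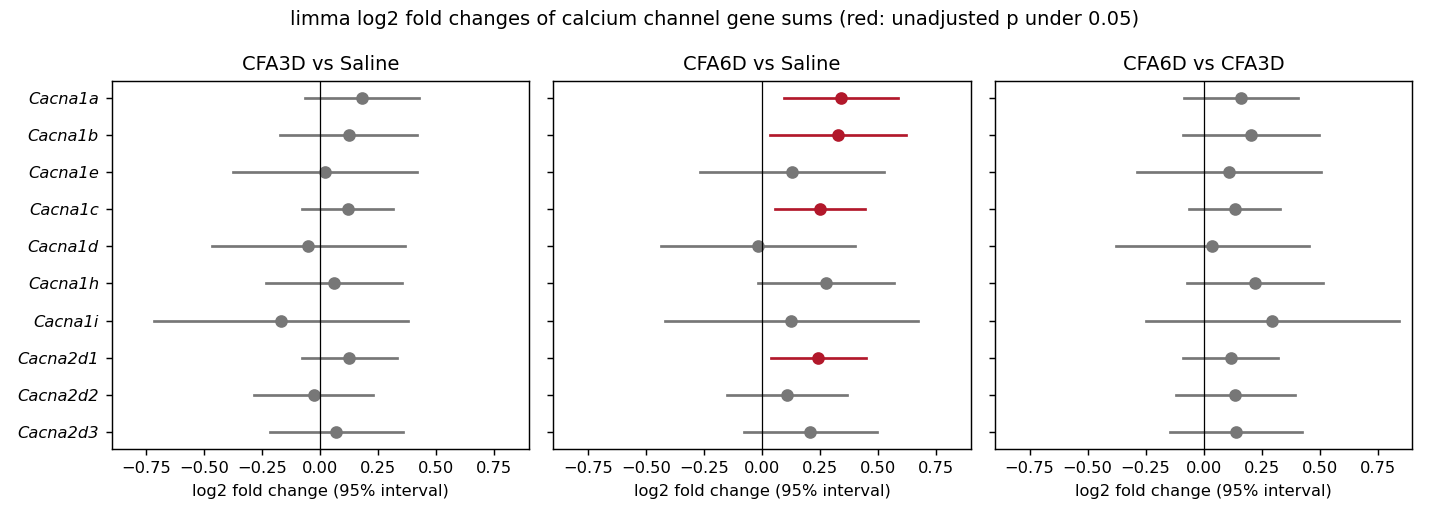
log2 fold changes of the 10 member gene sums (points, horizontal axes) with 95% intervals (lines) for CFA3D against Saline, CFA6D against Saline and CFA6D against CFA3D, from limma on log2(FPKM + 0.1). Red marks an unadjusted p under 0.05, which Cacna1a, Cacna1b, Cacna1c and Cacna2d1 reach on CFA6D at 0.24 to 0.34 and no member reaches in the other panels.

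Cell type markers also differed between the groups, and 3 of the 4 calls needed Saline 3. Of the 13 sensory neuron markers, 6 were higher on CFA6D and 0 lower (8.22% and 2.85% of all gene sums), with a median log2 fold change of 0.19. On CFA3D 2 of them were higher (3.65% of all), with a median of 0.19. Between the CFA days 3 were higher and 1 lower (3.06% and 4.34% of all gene sums), with a median of 0.0025. On CFA6D 3 of 4 non-peptidergic and 1 of 4 peptidergic nociceptor markers were higher, and 1 of 4 low-threshold mechanoreceptor markers was lower. None of the 4 Schwann cell, 2 cold sensor or 3 endothelium markers was called. Of all gene sums 2.85% were lower on CFA6D and 5.5% lay wholly below Saline. Of 3 fibroblast markers 2 were lower on CFA6D (median -0.49), and of 4 satellite glia markers 1 was lower (median -0.26). Of 5 macrophage markers 0 were called (median -0.35) and 3 lay wholly below Saline. Their summed levels overlapped Saline for fibroblasts (322 to 393 FPKM in Saline, 228 to 355 on CFA6D) and satellite glia (269 to 314 and 234 to 314), and not for macrophages (64.7 to 78.5 and 37.5 to 61.9). When each library was scaled to equal mean levels of those 13 markers, the median over all genes on CFA6D shifted to -0.25. The members' median was -0.05 and 0 of 10 members passed. This scaling takes 1 value per library from every gene, so the gap between members and all genes could not change. Under it 3556 of 16096 gene sums passed on CFA6D, only 93 of them higher. The part of these cell types in the members' differences was not tested. In bulk tissue, fewer or more cells of a type and less or more RNA per cell cannot be told apart. Saline 3 had both the highest sum of pituitary genes and the lowest neuron marker sum. Without it Cacna1a (log2 fold change 0.27) still passed, while Cacna1b (0.31), Cacna1c (0.20) and Cacna2d1 (0.20) kept their direction and did not. Without CFA6D 4, the library with the highest neuron marker sum, Cacna1a (0.26) and Cacna1c (0.24) passed, and Cacna1b (0.22) and Cacna2d1 (0.20) did not.

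The transcripts behind the leading pores were far less steady than the gene sums. Cacna1a had 3 transcripts with a long coding sequence. ENSMUST00000122053 (7589 bases) was at 0 in Saline 2, Saline 3, CFA3D 2 and CFA6D 5 and at 4.07 to 10.9 FPKM in the other 5 libraries, and ENSMUST00000121390 (7926 bases) ranged from 2.12 to 15.5 FPKM. The 3 together were at 14.3, 13.6 and 11.7 FPKM in Saline, 14.1, 13.8 and 14.1 on CFA3D and 16.5, 15.8 and 15.8 on CFA6D. The sum thus stood higher in the CFA6D libraries than in all 6 others, while the split among its parts changed within each group. The within-group coefficient of variation was 5.61% for this sum, 9.67% for the gene sum and 57.7% for ENSMUST00000121390. Retained-intron transcripts held 27.5 to 39.0% of the Cacna1a gene sum, led by ENSMUST00000141981 (2.14 to 3.53 FPKM), ENSMUST00000135382 (1.09 to 3.09), ENSMUST00000144879 (1.17 to 2.28) and ENSMUST00000126302 (0.743 to 2.53), and the noncoding ENSMUST00000129620 was at 2.54 to 4.52 FPKM. The third long coding transcript, ENSMUST00000215756, ranged from 0.314 to 8.07 FPKM.

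For Cacna1b the FPKM switched between transcripts almost completely. The transcripts share most of their sequence, and whether these switches, like those of Cacna1a and Cacna1e, and the exon shares computed from them, come from the RNA or from how the quantification divided shared reads was not tested. ENSMUST00000102939 (9736 bases) was at 11.5 FPKM in Saline 1, 12.1 in CFA3D 2 and 13.6 in CFA6D 6, the same libraries in which ENSMUST00000041342 and ENSMUST00000114447 (6984 and 6987 bases) were both at 0. In the other 6 libraries ENSMUST00000102939 was at 1.17 to 3.32 FPKM, ENSMUST00000041342 at 4.69 to 7.72 and ENSMUST00000114447 at 3.98 to 7.05. Each group held 1 of the former 3 libraries. Each of them had the lowest Cacna1b gene sum of its group, at 16.1 FPKM in Saline 1, 15.8 in CFA3D 2 and 19.9 in CFA6D 6. FPKM is scaled by transcript length, so the gene sum depends on how reads were divided among transcripts of unequal length. The part of the switch in the gene sum was not tested. In the same 3 libraries the long coding sum of Cacna1a stood above that of Cacna1b. Of the other Cacna1b transcripts, ENSMUST00000070864 was at 0.403 to 3.90 FPKM and the short ENSMUST00000124183 (308 bases) at 1.16 to 2.52. The within-group coefficient of variation was 97.8% for ENSMUST00000102939 and 12.1% for the Cacna1b gene sum, and the former's log2 fold change on CFA6D was 0.26 with a 95% interval from -1.94 to 2.46.

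**Figure D3:**
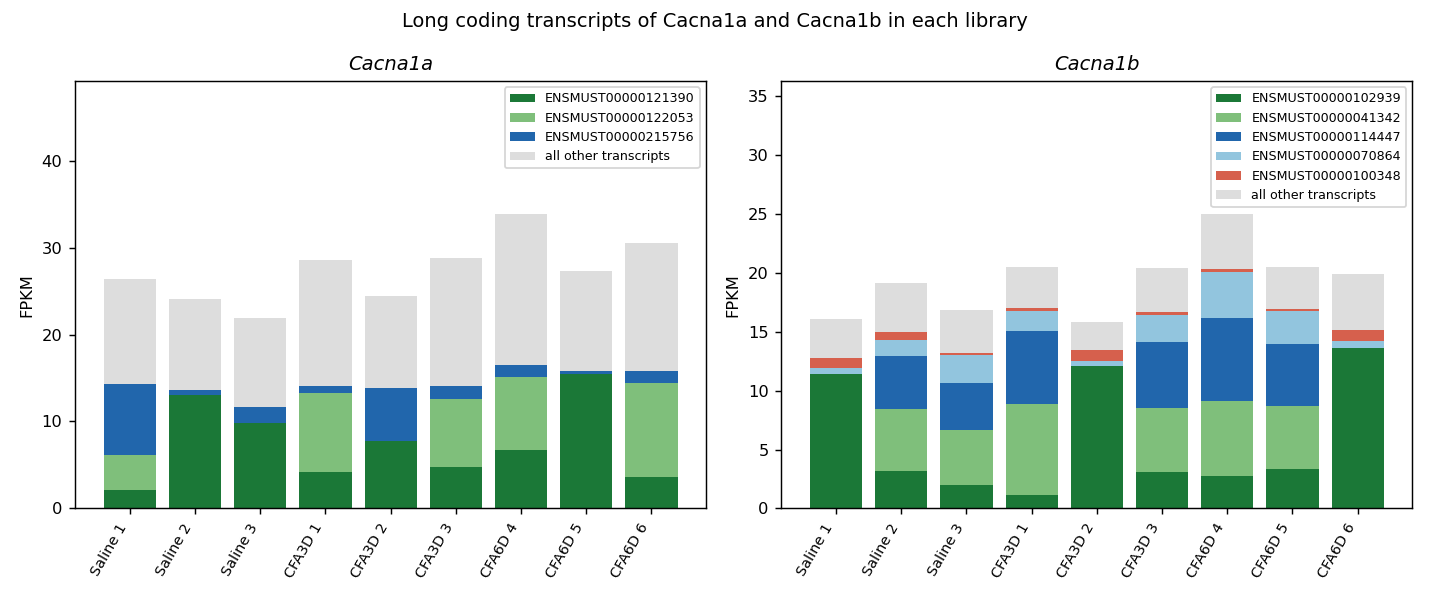
Stacked FPKM (vertical axes) of the long coding transcripts of Cacna1a (left) and Cacna1b (right) and of all their other transcripts (grey) in each of the 9 libraries (horizontal axes). For Cacna1b, ENSMUST00000102939 (dark green) fills most of the bar in Saline 1, CFA3D 2 and CFA6D 6 and little of it in the other 6 libraries, while bar heights stay within 15.8 to 25.0 FPKM.

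The Cacna1b transcripts that traded places differ in small exons in addition to their untranslated ends. The exon of 12 bases (chr2:24656711-24656722, GRCm38.p6, minus strand) and the exon of 6 bases (chr2:24642853-24642858, minus strand) are shown because each is carried by only 1 of the 2 sets of transcripts. Capitals mark the exon and lower case the 20 intron bases on each side, read from the RefSeq genome in the direction of transcription.

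Cacna1b 12-base exon: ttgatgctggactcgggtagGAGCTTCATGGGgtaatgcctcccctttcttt

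Cacna1b 6-base exon: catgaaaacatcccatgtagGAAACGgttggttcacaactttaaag

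Transcripts with the 12-base exon held 6.59% of the long coding FPKM in Saline 1, 7.28% in CFA3D 2 and 6.23% in CFA6D 6, and 63.7 to 82.7% in the other libraries. Those with the 6-base exon held 93.4%, 92.7% and 93.8% in the same 3 libraries and 17.3 to 36.3% in the others. The 12-base exon is in 3 of the long coding transcripts and the 6-base exon in the other 2, so the shares add up to the whole by construction and are a single measurement.

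Cacna1b and Cacna1e each carry a pair of alternative 97-base exons in the part that encodes the intracellular C-terminal tail. In N-type channels the upstream exon of the pair is known from nociceptive neurons. The pairs are shown because their shares were steady in Cacna1b, unlike those of the small exons. Capitals mark the bases that differ within a pair, and the exons are Cacna1b at chr2:24626823-24626919 (upstream) and chr2:24625238-24625334 (downstream) and Cacna1e at chr1:154417950-154418046 (upstream) and chr1:154416061-154416157 (downstream), GRCm38.p6, all on the minus strand.

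Cacna1b upstream: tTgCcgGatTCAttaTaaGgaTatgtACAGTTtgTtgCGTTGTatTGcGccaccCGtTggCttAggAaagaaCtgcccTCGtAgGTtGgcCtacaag

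Cacna1b downstream: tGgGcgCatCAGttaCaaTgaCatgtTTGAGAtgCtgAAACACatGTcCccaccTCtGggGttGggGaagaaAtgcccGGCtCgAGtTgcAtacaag

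Cacna1e upstream: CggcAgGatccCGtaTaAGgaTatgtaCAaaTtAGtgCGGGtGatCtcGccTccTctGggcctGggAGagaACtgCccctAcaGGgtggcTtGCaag

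Cacna1e downstream: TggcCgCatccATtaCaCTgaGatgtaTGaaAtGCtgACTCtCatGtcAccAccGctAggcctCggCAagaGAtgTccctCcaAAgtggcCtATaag

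The Cacna1b exons match at 58.8% and the Cacna1e exons at 62.9% of their bases. Across the genes the upstream exons match at 69.1% and the downstream exons at 72.2%, so each exon is closer to its counterpart in the other gene than to its own neighbour. The downstream exon held 89.1 to 91.6% of the Cacna1b FPKM of transcripts with either exon in Saline, 90.3 to 91.8% on CFA3D and 86.9 to 91.5% on CFA6D. The upstream exon's share, 8.16 to 13.1% over the 9 libraries, came from 1 short coding fragment, ENSMUST00000155356 (332 bases, 1.17 to 2.68 FPKM). All 5 long coding transcripts carry the downstream exon, so the switches among them leave this exon choice as it is by construction. The shares of the groups overlapped, and only each CFA day against Saline was tested (exact two-sided permutation p = 0.5 on CFA3D and 0.4 on CFA6D).

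In Cacna1e the downstream exon held 94.1, 79.6 and 81.4% in Saline, 64.0, 89.3 and 84.1% on CFA3D and 69.0, 79.4 and 74.8% on CFA6D. All CFA6D shares lay below all Saline shares, by 10.6 percentage points in the mean, and CFA3D spanned both. The exact two-sided permutation p was 0.1, the smallest that 3 against 3 allows, and 0.8 after adjustment over 32 such tests of 16 exon choices. The upstream exon was again held by 1 short fragment, ENSMUST00000226546 (331 bases), at 0.132 to 1.08 FPKM.

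Cacna1e also held both member transcripts that passed the test for transcripts, which asked for an unadjusted p under 0.05 together with a difference of 1 or more on the log2 scale. ENSMUST00000187541 (14921 bases) was at 1.2, 0.169 and 1.12 FPKM in Saline, 0.184, 0 and 0.190 on CFA3D and 0.955, 1.39 and 1.65 on CFA6D. It was low in all CFA3D libraries and in Saline 2. The difference was -1.90 on CFA3D (log2, SE 0.66, adjusted p = 0.989), 0.90 on CFA6D (95% interval -0.61 to 2.40) and 2.79 between CFA6D and CFA3D (1.29 to 4.30, adjusted p = 0.846). The CFA3D call was lost without Saline 1 (-1.50), Saline 3 (-1.55) or CFA3D 2 (-1.39).

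ENSMUST00000211821 (6765 bases) ran the other way, at 0.909, 2.01 and 0.538 FPKM in Saline, 1.74, 1.62 and 1.56 on CFA3D and 0.847, 0.954 and 0.199 on CFA6D. It was higher in all CFA3D than in all CFA6D libraries, and Saline 2 lay with CFA3D. CFA6D differed from CFA3D by -1.38 (log2, SE 0.55, 95% interval -2.63 to -0.13, adjusted p = 0.918), a call lost without any 1 of the CFA3D libraries (-1.34 to -1.41) or without CFA6D 6 (-0.80). The long coding transcripts of Cacna1e together were at 2.11, 2.18 and 1.66 FPKM in Saline, 1.92, 1.62 and 1.75 on CFA3D and 1.80, 2.35 and 1.85 on CFA6D. Their sum overlapped between the groups. The share of ENSMUST00000211821, the carrier of a 129-base exon, in the FPKM of these long transcripts overlapped with Saline on both days (exact two-sided permutation p = 0.3 on CFA3D and 0.5 on CFA6D, adjusted p = 0.896 for both), and it was 89.1 to 100% on CFA3D and 10.8 to 47.0% on CFA6D, a difference not tested as a share. Of the 79 member transcripts 1 was called on CFA3D (lower), 0 on CFA6D and 2 between the CFA days (1 in each direction). Of all 66562 transcripts, 2.19% were called on CFA3D (1.2% higher, 0.989% lower), 2.57% on CFA6D (1.47% and 1.1%) and 2.23% between the CFA days (1.17% and 1.05%). No member transcript had an adjusted p under 0.05, which 0.0255%, 0.0195% and 0.015% of all had.

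**Figure D4:**
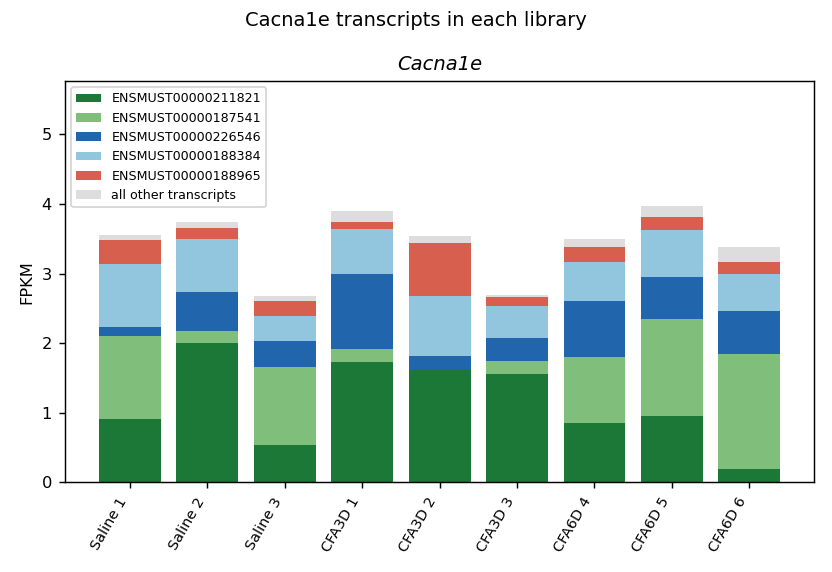
Stacked FPKM (vertical axis) of Cacna1e transcripts in each of the 9 libraries (horizontal axis). ENSMUST00000187541 (light green) is at 0 to 0.190 FPKM in the CFA3D libraries and 0.955 to 1.65 in the CFA6D libraries, while ENSMUST00000211821 (dark green) is at 1.56 to 1.74 and 0.199 to 0.954.

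The Cacna1c transcripts kept steadier proportions. This gene has 3 pairs of alternative coding exons that give alternative versions of membrane-spanning segments, of 104, 60 and 84 bases. The 104-base pair, which encodes the end of the first channel repeat, is shown because it is the exon choice whose CFA groups both stood apart from Saline. Capitals mark the bases that differ, and the exons lie at chr6:118742265-118742368 (upstream) and chr6:118741871-118741974 (downstream), GRCm38.p6, minus strand.

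Cacna1c upstream: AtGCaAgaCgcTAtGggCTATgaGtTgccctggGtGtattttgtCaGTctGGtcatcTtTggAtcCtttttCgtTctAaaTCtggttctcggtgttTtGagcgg

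Cacna1c downstream: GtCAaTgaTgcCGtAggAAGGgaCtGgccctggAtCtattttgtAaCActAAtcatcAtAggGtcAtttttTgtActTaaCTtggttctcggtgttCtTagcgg

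The exons match at 69.2% of their bases, and the upstream exon matches its Cacna1d counterpart at 86.5%. The downstream exon held 44.4, 41.3 and 40.9% of the Cacna1c FPKM with either exon in Saline, 39.7, 39.4 and 40.2% on CFA3D and 37.1, 35.2 and 38.9% on CFA6D. The Saline shares were the highest and the CFA6D shares the lowest, with no overlap between any of the groups. The mean share was 42.2% ± 1.92 (SD, n = 3) in Saline, 39.8% ± 0.404 on CFA3D and 37.1% ± 1.85 on CFA6D. Both differences from Saline gave an exact two-sided permutation p of 0.1, the smallest possible here, and an adjusted p of 0.8. They share the same Saline libraries. Of the 32 tests of 16 exon choices, 4 had groups that did not overlap, each at that p of 0.1, and 0 had an adjusted p under 0.05.

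The other Cacna1c pairs overlapped between groups. Of the 60-base pair (58.3% identical), the downstream exon held 63.1 to 71.0% in Saline, 63.9 to 70.7% on CFA3D and 69.9 to 72.9% on CFA6D. Of the 84-base pair (58.3% identical), the downstream exon held 33.6 to 40.6%, 31.8 to 39.3% and 29.2 to 34.9%, and 2 transcripts carried both exons. The leading Cacna1c transcripts were ENSMUST00000075591 (2.53 to 3.80 FPKM), ENSMUST00000188522 (2.16 to 3.41) and ENSMUST00000186889 (1.29 to 1.83). ENSMUST00000186889, the longest of these at 13162 bases, was at 1.83, 1.79 and 1.75 FPKM on CFA6D and at 1.29 to 1.51 in the other 6 libraries. Its CFA6D values thus lay above all others, but it was not called. The share of all transcripts that lie apart in this way was not computed. The noncoding ENSMUST00000187849 was at 0.727 to 1.43 FPKM.

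**Figure D5:**
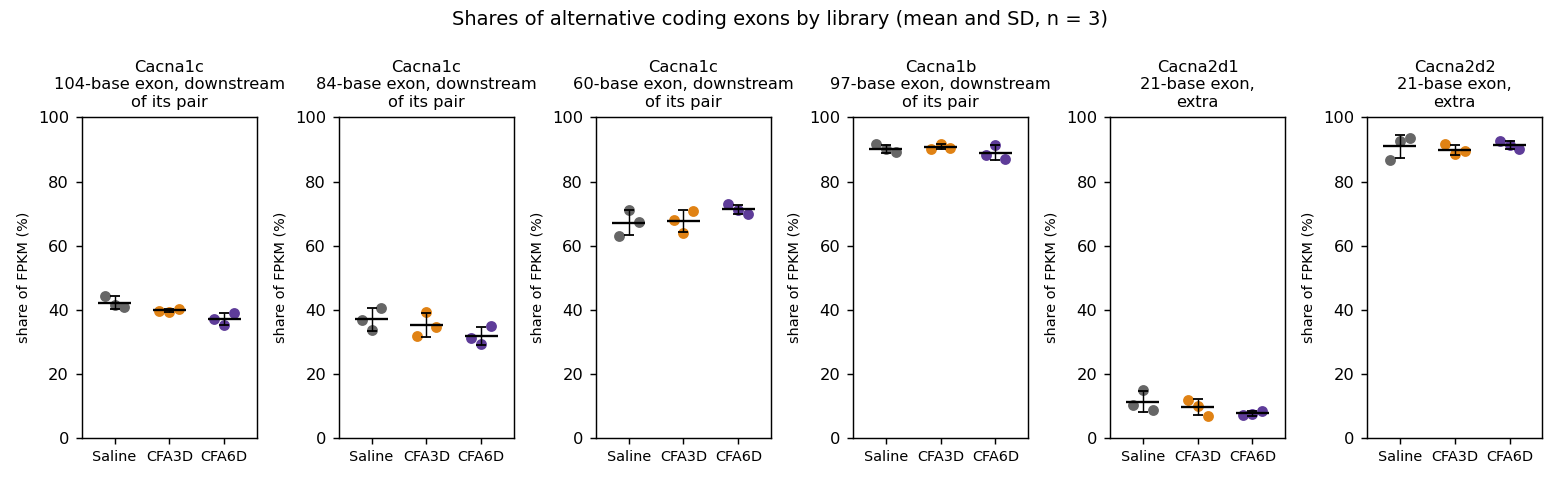
Share in percent (vertical axes, 0 to 100) of the FPKM of a gene's transcripts that carry the named exon, in the Saline, CFA3D and CFA6D libraries. Points are libraries and bars the mean and SD of 3 libraries, and the Cacna1c 104-base exon is at 40.9 to 44.4% in Saline and 35.2 to 38.9% on CFA6D, while the Cacna1b pair stays at 86.9 to 91.8%.

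The alpha2delta genes Cacna2d1 and Cacna2d2 each have an extra 21-base exon with opposite use. The exons, at chr5:16341990-16342010 and chr9:107519179-107519199 (GRCm38.p6, plus strand), are in capitals between 20 intron bases on each side.

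Cacna2d1 21-base exon: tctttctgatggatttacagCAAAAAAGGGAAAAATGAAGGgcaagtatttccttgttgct

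Cacna2d2 21-base exon: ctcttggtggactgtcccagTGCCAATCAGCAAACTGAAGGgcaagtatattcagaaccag

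The exons match at 57.1% of their bases. Transcripts with the exon held 6.81 to 14.9% of the long coding FPKM of Cacna2d1 and 86.7 to 93.5% of that of Cacna2d2, so the 2 genes did not overlap in any library. Within Cacna2d1 the share was 10.1, 14.9 and 8.78% in Saline, 11.8, 9.97 and 6.81% on CFA3D and 6.97, 7.52 and 8.52% on CFA6D. Saline lay above CFA6D in every library (exact two-sided permutation p = 0.1, adjusted p = 0.8), and CFA3D overlapped both. Of Cacna2d2, the leading ENSMUST00000166799 was at 1.85 to 4.85 FPKM, ENSMUST00000085092 at 0.954 to 2.64 and the retained-intron ENSMUST00000194842 at 0.866 to 1.5. Cacna2d3 rested on ENSMUST00000022567 (6.56 to 9.21 FPKM), which held 69.7 to 76.1% of its gene sum.

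The remaining members differed in how much of their sum was coding. Transcripts annotated as protein coding held a median of 5.78% of the Cacna1d gene sum, 69.3% of that of Cacna1h and 100% of that of Cacna1i. The leading Cacna1d transcript, ENSMUST00000224395, annotated for nonsense-mediated decay, was at 1.26, 1.26 and 1.18 FPKM in Saline, 0.587, 0.506 and 1.15 on CFA3D and 0.608, 1.2 and 1.13 on CFA6D. Low values thus occurred in both CFA groups and not in Saline, and the groups overlapped between CFA3D and CFA6D. The coding transcripts of Cacna1d were at 0.0111 to 1.44 FPKM together, and the downstream share of its own 104-base exon pair ran from 0 to 72.6%. The Cacna1d locus overlaps Chdh and Dcp1a on the opposite strand, at 5.93 and 5.35 FPKM, and Cacna1c overlaps Dcp1b at 3.60 FPKM; whether the deposited values were counted by strand is not given in the sources used here.

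The leading Cacna1h transcript, ENSMUST00000159610, was at 5.40, 4.36 and 2.94 FPKM in Saline, 4.89, 5.02 and 5.64 on CFA3D and 7.05, 5.47 and 3.46 on CFA6D. It overlapped between the groups, and the retained-intron ENSMUST00000159052 was at 0.749 to 1.47 FPKM. Over the coding transcripts alone, Cacna1h passed the test on CFA6D with a log2 fold change of 0.34, against 0.28 for its gene sum, which did not pass. Cacna1i rested on ENSMUST00000160424, at 0.670 to 1.34 FPKM.

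Among the other 16 calcium channel genes, 13 could be tested. On CFA3D 1 was higher and 1 lower (3.65% and 0.801% of all gene sums), on CFA6D 4 were higher and 0 lower (8.22% and 2.85%), and 0 passed between the CFA days. Of the 4 beta subunits, Cacnb1 and Cacnb3 were among those higher on CFA6D, and Cacnb2 (-0.24) and Cacnb4 (0.05) did not pass. With neuron scaling none of the 4 passed on CFA6D (Cacnb1 0.02, Cacnb3 0.18, Cacng5 0.10, Cacng7 0.08), nor did Cacnb3 on CFA3D (0.11). Of all 16096 gene sums, that scaling left only 93 higher on CFA6D and 18 on CFA3D. Cacnb3, an intracellular beta subunit that assembles with Cacna1b, was at 40.9, 41.2 and 36.2 FPKM in Saline, 47.1, 49.1 and 50.1 on CFA3D and 62.1, 46.8 and 53.8 on CFA6D. Both CFA groups lay wholly above Saline, with log2 fold changes of 0.31 on CFA3D (95% interval 0.07 to 0.54, adjusted p = 0.997) and 0.45 on CFA6D (0.21 to 0.69, adjusted p = 0.161). Its gene sum exceeded that of every member in every library. Without Saline 3 the CFA3D difference was 0.25 and did not pass.

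Cacnb1, a beta subunit, was at 9.83, 10.9 and 10.6 FPKM in Saline, 11.2, 10.9 and 11.4 on CFA3D and 13.3, 11.5 and 14.0 on CFA6D, with a log2 fold change of 0.30 on CFA6D (adjusted p = 0.263). Cacng7 (log2 fold change 0.35, adjusted p = 0.267) and Cacng5 (0.37, adjusted p = 0.389), which encode proteins of the gamma family known for regulating AMPA receptors, were higher on CFA6D as well. The lower gene on CFA3D was Cacng1, a skeletal muscle subunit, at 0.374, 0.403 and 0.0799 FPKM in Saline and 0.0396 to 0.0608 on CFA3D. Its highest values came from Saline 1 and Saline 2, where muscle genes were also high, and their part in it was not tested. Without Saline 1 or Saline 2 its log2 difference was -1.02 or -0.98 and did not pass, and the CFA6D call of Cacng5 was lost without Saline 2 (0.31), Saline 3 (0.34), CFA6D 4 (0.32) or CFA6D 6 (0.33). Cacnb4 (17.1 to 21.8 FPKM), Cacnb2 (1.94 to 4.17), Cacng2 (1.17 to 1.95), Cacng4 (1.48 to 2.58) and Cacng8 (0.896 to 2.59) overlapped between Saline and each CFA group.

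Of 36 regulators and partners of these channels, 5 were higher and 0 lower on CFA3D (3.65% and 0.801% of all gene sums), 9 were higher and 1 lower on CFA6D (8.22% and 2.85%), and between the CFA days 2 were higher and 0 lower (3.06% and 4.34%). With neuron scaling all but the lower gene, Kcnn2 (-0.91), failed the test. That scaling lowered the fold change from Saline of every gene. Of all 16096 gene sums it left 93 higher among 3556 passing on CFA6D and 18 among 621 on CFA3D. Between the CFA days it left 160 higher among 1038 passing. Vamp2, the vesicle protein of the fusion machinery that channel calcium triggers, was at 62.7, 61.0 and 68.9 FPKM in Saline, 70.6, 76.3 and 72.8 on CFA3D and 92.8, 86.1 and 87.1 on CFA6D. The 3 groups did not overlap, with log2 fold changes of 0.19 on CFA3D (adjusted p = 0.997), 0.47 on CFA6D (adjusted p = 0.0861) and 0.27 between them (adjusted p = 0.613). Syt1, the vesicle's calcium sensor, was at 24.8, 27.2 and 25.5 FPKM in Saline, 31.4, 28.2 and 28.7 on CFA3D and 36.9, 33.0 and 31.8 on CFA6D. It too separated the 3 groups, with log2 fold changes of 0.19 on CFA3D, 0.39 on CFA6D (adjusted p = 0.134) and 0.20 between them. The CFA3D differences of Vamp2, Syt1 and Dpysl2 failed the test without Saline 1, CFA3D 3 or several others of the libraries, and with neuron scaling they were -0.01, -0.01 and 0.01. On CFA6D that scaling left 0.19 for Vamp2, 0.12 for Syt1 and 0.11 for Dpysl2.

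Dpysl2, which encodes CRMP2, a binding partner of Cacna1b, was higher by 0.39 on CFA6D (log2, adjusted p = 0.156) and by 0.20 on CFA3D. Kcnn1, a calcium-activated potassium channel, and Stac, an adaptor of L-type channels, passed on CFA3D with log2 fold changes of 0.35 and 0.42 (adjusted p = 0.997 for both), and with neuron scaling they were 0.15 and 0.22. On that day Kcnn1 also failed with approximate reads (0.20), and Stac without Saline 3 (0.28) or over coding transcripts (0.22). Both genes passed on CFA6D too, Kcnn1 with 0.26 (adjusted p = 0.401) and Stac with 0.44 (adjusted p = 0.29). Ryr3, a calcium release channel, and Camk2a, a calmodulin kinase, passed on CFA6D with 0.40 (adjusted p = 0.276) and 0.39 (adjusted p = 0.289), with neuron scaling 0.12 for both, and Ryr3 failed over coding transcripts too (0.16). The lower gene on CFA6D was Kcnn2, another calcium-activated potassium channel, with -0.63 (adjusted p = 0.398), named here after its values were seen. Its levels were 5.02, 4.26 and 7.66 FPKM in Saline and 2.44, 4.43 and 3.95 on CFA6D, which overlapped, and the difference was -0.39 without Saline 3 and -0.38 without CFA6D 4, neither of which passed.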

How the data were processed

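FPKM values per transcript were deposited by the authors for 9 libraries of pooled TG RNA. The methods state rRNA depletion with a stranded total RNA kit, trimming with Trimmomatic, mapping to GRCm38 and quantification in CLC Genomics Workbench, whereas the labels name another TruSeq kit, mm8 and Bowtie 0.12.2 without a role. Of 102122 transcripts, 101539 matched GENCODE M21 by identifier, and FPKM was summed by gene name. Read pairs were estimated from the smallest steps of the FPKM values. Features averaging 0.1 FPKM or more over the libraries were tested as log2(FPKM + 0.1), all 9 libraries in 1 fit, with limma 3.58.1 (trend, R 4.3.3) and Benjamini-Hochberg adjustment, after tests on simulated data. Fold changes on this scale understate those of low genes. Gene sums were called at p under 0.05 and transcripts also needed a difference of 1 on the log2 scale.

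All members were named. Of transcripts, the leading one, those called and those averaging 1 FPKM were named, of other channel genes those with p under 0.05 or at least 1 FPKM, and of regulators at most 5 per comparison by p. Members and lists were chosen with earlier results of these data known. Exon shares were computed from coding exons in GENCODE M21, as the FPKM of transcripts with an exon over that of transcripts with it or without it (for pairs, with either exon). Pairs were neighbouring coding exons of equal length (50 to 150 bases, at least 50% identical), and extra exons were multiples of 3 bases in transcripts coding for at least 3000 bases. Exon bases came from the RefSeq GRCm38.p6 genome. Replicates are pools of mice, and p-values measure the spread between these pools. Alternatives covered pseudocounts, filters, quantile normalization, scaling to neuron markers, smaller fits, the replicate number as a block, single transcripts, approximate reads, coding transcripts only and leaving out each library.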

Additional observations from a re-analysis of the deposited data

Results flagged for a closer look

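Both Cacna1e transcripts were flagged because they passed the fit's own test between the CFA days, so that result adds no further support. Of the 79 member transcripts 2 were called in that test, as were 2.23% of all 66562 transcripts. ENSMUST00000187541 was higher on CFA6D than on CFA3D by 2.79 on the log2 scale (adjusted p = 0.846), and ENSMUST00000211821 was lower, at -1.38 (adjusted p = 0.918). In Saline 2, ENSMUST00000187541 (0.169 FPKM) and ENSMUST00000211821 (2.01 FPKM) had the balance of the CFA3D libraries, and in Saline 1 and Saline 3 (1.2 and 1.12 against 0.909 and 0.538 FPKM) they did not.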

How the results depend on the processing

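The 4 calls on CFA6D became 2 with quantile normalization, 0 with neuron scaling and 1 with the highest transcript, and 1 to 4 when single libraries were left out. Over all genes, 1323 of 16096 were higher on CFA6D in the main fit. This became 990 with quantile normalization, 93 with neuron scaling, 1246 of 15835 with the highest transcript and 863 to 1685 with single libraries left out. With neuron scaling the members' median log2 fold change was -0.134 on CFA3D and -0.0499 on CFA6D. On CFA3D the 0 calls became 1 with the highest transcript and 2 with approximate reads, and between the CFA days they became 1, 4 and, with protein-coding transcripts only (chosen after seeing the data), 1. Over the 15749 to 16096 genes tested, the 717 calls on CFA3D became 807 and 766. Those between the CFA days went from 1190 to 1109, 1244 and 1173. The 1 called transcript on CFA3D became 0 with a pseudocount of 1 or a mean of 1 FPKM and 0 to 3 with single libraries left out, the 0 on CFA6D became 0 to 2, and the 2 between the CFA days became 5 with a pseudocount of 0.01 or approximate reads, 1 with a pseudocount of 1, a mean of 1 FPKM or no filter, and 1 to 4 with single libraries left out.

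Directions turned as follows, and the cause was not tested. On CFA3D, quantile normalization gave -0.00679 for Cacna1e and -0.00347 for Cacna1h; neuron scaling gave Cacna1a -0.0184, Cacna1b -0.0757, Cacna1c -0.0796, Cacna1e -0.177, Cacna1h -0.139, Cacna2d1 -0.0717, Cacna2d3 -0.128, Syt1 -0.00677 and Vamp2 -0.00504; the highest transcript gave Cacna1a -0.27, Cacna1b -0.219 and Cacna2d2 0.403; approximate reads gave Cacna1e -0.451; and protein-coding transcripts gave Cacna1d 0.818 and Cacna1e -0.0436. On CFA6D, neuron scaling gave Cacna1c -0.0251, Cacna1e -0.145, Cacna1i -0.149, Cacna2d1 -0.0329, Cacna2d2 -0.168, Cacna2d3 -0.0669 and Kcnn1 -0.0174, and the highest transcript gave Cacna1e -0.728 and Kcnn1 -0.112. Between the CFA days, neuron scaling gave Cacna1d -0.0428, the highest transcript Cacna1e -1.38 and Cacna1h -0.0161, and protein-coding transcripts Cacna1d -0.89. With single libraries left out, the CFA3D ranges that crossed 0 were -0.0275 to 0.167 for Cacna1h, -0.135 to 0.0578 for Cacna1d, -0.124 to 0.17 for Cacna1e, -0.352 to 0.104 for Cacna1i and -0.0851 to 0.0728 for Cacna2d2. On CFA6D they were -0.0562 to 0.4 for Cacna1i, -0.201 to 0.0974 for Cacna1d and -0.0127 to 0.221 for Cacna1e, and between the CFA days -0.147 to 0.151 for Cacna1d and -0.039 to 0.221 for Cacna1e.

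Saline and CFA3D share replicate numbers, and same-numbered libraries deviated together with r of 0.0873, -0.0802 and 0.03 across genes. These values showed no clear pairing, but 3 libraries a group cannot exclude a weak one. With the replicate number as a block, the CFA3D comparison had 0 called members and 1 called transcript, and the members' median was 0.0631, while Vamp2, Syt1 and Dpysl2 no longer passed on CFA3D. Alternatives for called transcripts and for genes outside the members were added after seeing the data. Exon shares were computed once, over transcripts averaging 0.1 FPKM or more. Scaling a library leaves them as they are, but other filters and leaving out libraries were not tried for them. Cacna1d and Cacna1i, at 205 to 809 read pairs per library, are the members that depth limits most.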
